A study of Mus musculus with 12 samples.

Results

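Forebrain RNA of newborn mice that carried only an activated Smoothened allele (GS) was compared with that of newborn mice that carried only a stabilised beta-catenin allele (GB). The comparison uses 6 of the 12 arrays in the series, chosen by their titles, with 3 arrays for each genotype. GS mice were hGFAP-cre::SmoM2Fl/+ and GB mice were hGFAP-cre::Ctnnb1(ex3)Fl/+, so each carried 1 floxed allele and the same Cre. Control mice (Ctnnb1(ex3)Fl/+SmoM2Fl/+) held both floxed alleles and no Cre. GBS mice (hGFAP-cre::Ctnnb1(ex3)Fl/+SmoM2Fl/+) held both alleles with Cre, and their arrays were made from tumor tissue. All 12 mice were taken at postnatal day 0 without treatment, and each array is labelled as a biological replicate. The hGFAP promoter that drives Cre works in radial glia, so the allele is switched on in those precursors and their offspring while the tissue also holds cells without recombination. In such bulk tissue, fewer cells of a type and less RNA per cell cannot be told apart.

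Smoothened is the membrane protein that passes on the sonic hedgehog (SHH) signal once the receptor Ptch1 releases it. SmoM2 is a mutant form that signals without ligand, and GLI transcription factors then switch on targets, among them Ptch1 itself and the inhibitor Hhip. In the WNT pathway, beta-catenin is marked for destruction through residues encoded by exon 3 of Ctnnb1. Removal of that exon by Cre leaves a stable protein, which binds LEF and TCF factors on DNA and switches on feedback genes such as Axin2, Wif1 and Nkd1. In the embryonic forebrain, SHH is known as a ventral patterning signal and mitogen, and WNT as a dorsal signal from the cortical hem.

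Values are RMA levels on a log2 scale, so a difference of 1 is a 2-fold difference. Levels of different genes come from different probe sets and are not set against each other. The test was limma, fitted to all 12 arrays with 1 mean per genotype, and a call needs an adjusted p under 0.05 (Benjamini-Hochberg, over the 14195 genes tested). All adjusted p-values below are two-sided and from limma. Errors beside a log2 difference are the fit's standard errors. Each difference is GS minus GB, so a negative value means that GB was higher.

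Before the results, the arrays themselves differ. Over 19938 genes, GS replicates 1 and 2 correlated at 0.993 and GB replicates 1 and 3 at 0.991. GB replicate 2 correlated with the other GB arrays at 0.862 and 0.85, and GS replicate 3 with the other GS arrays at 0.959 and 0.965. These arrays departed from their groups in the same direction, with a correlation of their deviations of 0.83. The median level of 1194 olfactory and vomeronasal receptor genes, read here as a measure of background, was 5.35 in GB replicate 2 and 5.23 in GS replicate 3, against 4.88 to 5.07 in the other 4. Of these 4, the GS arrays read 4.88 and 4.96 and the GB arrays 5.07 and 5.02, so this level also differed between the genotypes there. Control arrays read 5.12 to 5.23 and GBS arrays 4.84 to 4.92. Over the 208 receptor genes that were tested, the median difference of GS minus GB was -0.2 on all arrays. Differences and list medians are therefore also given without GB replicate 2 and GS replicate 3, in a fit of the other 10 arrays, which leaves 2 arrays for GS and 2 for GB. Xist was low and Y-linked genes were high in replicate 1 of GS and GB, and the reverse held in their replicates 2 and 3. GS and GB thus held the same number of mice of each sex. Every Control and GBS array had low Xist (4.85 to 5.02) and high Y-linked genes. Levels of GS and GB set beside Control or GBS therefore also differ in sex. The table holds no detection calls, so the forebrain label was not checked by the presence or absence of regional markers.

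The promoters of 4 genes are printed: Ptch1 and Nhlh1 are the genes that passed the test, and Sp5 and Tnfrsf19, which did not pass, are the WNT targets whose window holds the searched TCF letters. Each is the 250 bases before a transcription start in RefSeq (GRCm38.p6), written 5′ to 3′ on the gene's strand. They lie at chr13:63565736-63565985 (minus strand) for Ptch1, chr1:172057597-172057846 (minus strand) for Nhlh1, chr2:70474673-70474922 (plus strand) for Sp5 and chr14:61037988-61038237 (minus strand) for the second listed start of Tnfrsf19. Capitals mark CAGATG, an E-box, in Nhlh1, and CTTTGAT or its reverse complement in Sp5 and Tnfrsf19.
Ptch1: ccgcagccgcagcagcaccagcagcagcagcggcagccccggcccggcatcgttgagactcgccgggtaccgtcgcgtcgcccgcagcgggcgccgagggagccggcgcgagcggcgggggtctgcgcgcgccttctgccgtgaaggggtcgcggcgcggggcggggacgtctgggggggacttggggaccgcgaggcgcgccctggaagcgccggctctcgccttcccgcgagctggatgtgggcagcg
Nhlh1: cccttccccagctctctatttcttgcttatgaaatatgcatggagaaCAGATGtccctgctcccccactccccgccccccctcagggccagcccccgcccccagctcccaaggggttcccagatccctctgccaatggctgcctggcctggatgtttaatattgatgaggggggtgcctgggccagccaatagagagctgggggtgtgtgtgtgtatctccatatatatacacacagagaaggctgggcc
Sp5: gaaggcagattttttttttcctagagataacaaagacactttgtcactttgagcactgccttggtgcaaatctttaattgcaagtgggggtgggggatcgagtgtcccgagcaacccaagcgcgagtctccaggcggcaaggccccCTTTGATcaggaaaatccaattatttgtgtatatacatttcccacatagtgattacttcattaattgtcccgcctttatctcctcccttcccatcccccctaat
Tnfrsf19: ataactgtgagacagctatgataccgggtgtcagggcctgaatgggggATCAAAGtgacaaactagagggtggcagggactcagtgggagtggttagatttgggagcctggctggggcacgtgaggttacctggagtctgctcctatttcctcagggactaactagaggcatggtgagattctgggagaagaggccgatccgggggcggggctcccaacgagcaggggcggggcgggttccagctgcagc
Both strands were searched. Of 32851 windows of this length, 3.21% held CTTTGAT, 14.4% held CAGATG and 0.225% held TGGGTGGTC, the GLI letters. The Ptch1 window held none of these letters and had 41 CG pairs, while the median window had 6, and Nhlh1 had 2. Among the 16 tested WNT targets, 10 were listed and 2 held CTTTGAT, and none of 6 listed SHH targets held the GLI letters in this window. A match of letters is a description of the window and was not tested for binding.

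Of the 14195 genes, 1 was called higher in GS (0.00704% of those tested) and 1 lower (0.00704%). These 2 genes (0.0141%) were Ptch1 and Nhlh1. At an unadjusted p under 0.05, 628 genes were higher and 487 lower in GS. The 3 GS arrays lay wholly above the 3 GB arrays for 632 genes (4.45%) and wholly below for 725 (5.11%), which makes 1357 genes without overlap (9.56%). By the number of ways to label 3 against 3 arrays, a gene with no difference would separate wholly about this often. Whole separation is therefore a description here and no test. Differences were small for most genes, with a median size of 0.166 on the log2 scale and a median difference of -0.041, and the median standard error was 0.134. On group means, 56 genes were at least 2-fold higher in GS and 6 at least 2-fold lower.

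Without GB replicate 2 and GS replicate 3, 18 genes were called higher in GS (0.127%) and 11 lower (0.0775%), 29 in all (0.204%), with Ptch1 and Nhlh1 among them. The arrays of 24 of these 29 genes did not overlap with all 6 arrays counted. These counts rested on few arrays: without a further GS or GB array, 2 genes were called higher and 2 lower (3 lower without GB replicate 1). Without GBS replicate 2, which enters only through the shared spread, 79 were higher and 24 lower, without Control replicate 3 76 and 14, and without GBS replicate 3 28 and 14. Starting from all 12 arrays, leaving out GS replicate 3 alone gave 4 higher and 2 lower, and leaving out GB replicate 2 alone gave 2 higher and 8 lower. Leaving out GBS replicate 2 gave 2 and 4, and leaving out GBS replicate 3 gave 2 and 0.

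**Figure D1:**
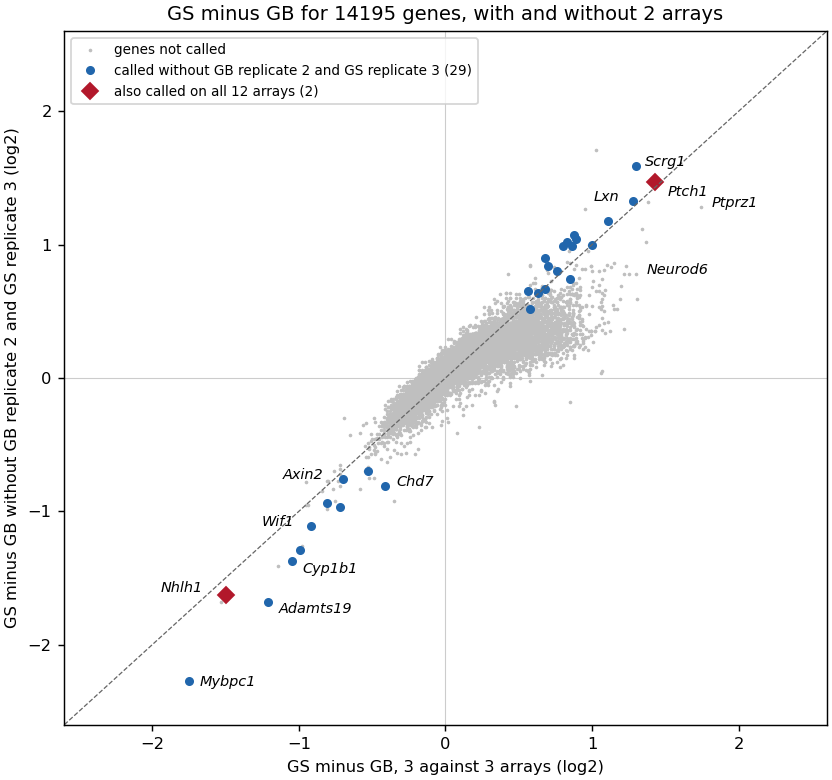
Each point is 1 of 14195 genes. The horizontal axis is GS minus GB on all arrays and the vertical axis the same difference without GB replicate 2 and GS replicate 3, both in log2 units, and the dashed line marks equal values. The 29 genes called in the smaller fit are blue, and the 2 called in both, Ptch1 and Nhlh1, are red. Ptprz1 and Neurod6, which were not called, lie under the dashed line at the right.

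Ptch1 holds Smoothened inactive until SHH binds it, and GLI factors switch it on. Its level was 8.57, 8.62 and 8.46 in GS and 6.96, 7.12 and 7.28 in GB. The GS arrays all lay more than 1 log2 unit above every GB array, and the GB arrays spread around the Control mean of 7.12. Ptch1 was 2.69-fold higher in GS (1.43 ± 0.118, adjusted p = 0.00162), and 1.47 higher without the 2 arrays that stand apart (adjusted p = 0.000969). It was called under 27 of 28 other settings, with adjusted p from 7.46e-07 to 0.114, and missed the threshold when GS and GB were fitted without the other genotypes.

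The other SHH targets did not pass. Of 9 tested, 1 was called (0.00704% of all genes) and 3 had GS arrays wholly above GB (4.45% of all genes). By means 5 were higher in GS (43% of all genes), with a list median of 0.15 (0.14 without the 2 arrays). Hhip, which binds and sequesters the ligand, read 6.25, 6.11 and 6.31 in GS and 5.81, 6.07 and 5.74 in GB, a narrow gap with no overlap (0.35, adjusted p = 0.486; without the 2 arrays 0.40). Ccnd2, a D-type cyclin, read 8.43, 8.20 and 8.47 in GS and 7.96, 7.55 and 7.92 in GB (0.56, adjusted p = 0.486; without the 2 arrays 0.38). Gli1, the factor often read as a measure of SHH signalling, was 7.61, 7.51 and 7.80 in GS and 7.56, 7.99 and 7.63 in GB. Its arrays overlapped, and the difference of -0.09 (adjusted p = 0.673) was positive without GB replicate 2 (0.04) and with the receptor-gene level as a covariate (0.03).

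Among 14 tested SHH ligands, receptors and GLI factors, 0 were called in limma (before adjustment, 1 was higher and 1 lower with a p under 0.05). Of the 14, 12 had the lower mean in GS, where 43% of all genes had the higher mean. The median was -0.13, against -0.041 over all genes and -0.2 over the tested olfactory and vomeronasal receptor genes. Without the 2 arrays it was -0.11, against -0.001 over all genes. Gpr161, a ciliary receptor that restrains the pathway, read 7.69, 7.74 and 7.68 in GS and 7.40, 7.54 and 7.27 in GB (0.30, adjusted p = 0.486; without the 2 arrays 0.38). The ligand coreceptor gene Boc (-0.27) and the GLI factor gene Gli3 (-0.22) overlapped between the groups (adjusted p = 0.486 each), and without the 2 arrays they differed by -0.25 and -0.33.

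The 2 genes that carry the alleles were measured too. Smo read 7.17, 7.13 and 7.24 in GS and 7.24, 7.36 and 7.04 in GB, with a difference of -0.03 (adjusted p = 0.869) whose sign turned in other settings. Ctnnb1 read 8.85, 8.76 and 8.41 in GS and 8.18, 7.56 and 8.35 in GB. The arrays did not overlap, GB replicate 2 was the lowest, and the difference of 0.65 did not pass (adjusted p = 0.486; without the 2 arrays 0.54, adjusted p = 0.164). No source used here gives the positions of the probes along these transcripts, and the levels are therefore no check of the alleles.

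Nhlh1 encodes a basic helix-loop-helix factor of newly formed neurons. It read 5.95, 6.17 and 6.31 in GS and 7.74, 7.54 and 7.63 in GB. GS lay near the Control mean of 6.30 and every GB array lay more than 1 log2 unit above every GS array. Nhlh1 was 2.82-fold higher in GB (-1.50 ± 0.174, adjusted p = 0.025; without the 2 arrays -1.63, adjusted p = 0.00682). Its call ended without GBS replicate 3, GS replicate 1 or 2, GB replicate 1 or 3, or any Control array, and also in 5 settings that keep all arrays in the groups compared, among them median-centred arrays. The difference stayed between -1.63 and -1.40 and the adjusted p between 6.66e-06 and 0.217. The related gene Nhlh2 read 5.87, 5.98 and 6.09 in GS and 6.29, 6.43 and 6.13 in GB (-0.30, adjusted p = 0.486; without the 2 arrays -0.28).

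WNT/beta-catenin targets lay mostly toward GB. Of 16 tested, 0 were called in limma on all arrays. At an unadjusted limma p under 0.05, 10 were lower and 0 higher, where 487 of all 14195 genes were lower and 628 higher. Without the 2 arrays, 2 (Wif1 and Axin2) were called lower, as were 0.0775% of all genes. The GS arrays lay wholly below the GB arrays for 11 of 16 (5.11% of all genes). By means 15 were lower in GS, where 43% of all genes had the higher mean. The median was -0.35 (-0.33 without the 2 arrays), between -0.41 and -0.26 under 28 other settings.

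Wif1, a secreted inhibitor that binds WNT proteins, read 6.48, 6.44 and 6.70 in GS and 7.66, 7.24 and 7.49 in GB. No arrays overlapped, and all 3 GS arrays lay below the Control mean of 6.74. The difference was -0.92 ± 0.139 (adjusted p = 0.0941), and -1.11 without the 2 arrays (adjusted p = 0.00682). Axin2, the scaffold that brings beta-catenin to its kinases, read 7.15, 7.16 and 7.01 in GS and 7.88, 7.58 and 7.95 in GB. It differed by -0.70 (adjusted p = 0.244), and by -0.76 without the 2 arrays (adjusted p = 0.0317). Lef1, the DNA partner of beta-catenin, read 7.43, 7.53 and 7.37 in GS and 8.41, 8.33 and 8.44 in GB. Its arrays were tight in both genotypes and well apart, and it did not pass (-0.95, adjusted p = 0.244; without the 2 arrays adjusted p = 0.11). The fit pools the spread of all genotypes, and the standard deviation of Lef1 was 0.083 in GS, 0.059 in GB, 0.241 in Control and 0.364 in GBS. With only GBS replicate 2 left out, Lef1 was called.

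The other WNT targets were called in neither fit. Nkd1, which binds Dishevelled and dampens the signal, read 7.30, 7.41 and 7.34 in GS and 8.17, 7.99 and 8.21 in GB (-0.77; without the 2 arrays -0.83). Apcdd1, a membrane WNT inhibitor, read 7.48, 7.49 and 7.78 in GS and 8.10, 8.04 and 8.20 in GB (-0.53; without the 2 arrays -0.67). Tnfrsf19, a receptor of the TNF family whose promoter is printed above, read 6.73, 6.81 and 6.85 in GS and 7.32, 7.15 and 7.32 in GB (-0.47, adjusted p = 0.365; without the 2 arrays -0.55). All 3 had GS arrays wholly below GB. The same held for Lgr6 (-0.45), Rnf43 (-0.35), Notum (-0.34) and Znrf3 (-0.26), which act at the receptor or inactivate WNT proteins, while the arrays of Sp5 overlapped (-0.30). Without the 2 arrays these 5 differed by -0.46, -0.32, -0.34, -0.24 and -0.28. Ccnd1, a cyclin gene named for both pathways and chosen after its values were seen, read 6.85, 6.79 and 6.85 in GS and 6.765, 6.997 and 6.793 in GB, a difference of -0.02 (adjusted p = 0.876; without the 2 arrays 0.04) whose sign turned in other settings.

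Secreted WNT antagonists overlap with that list. Of 12 tested, 0 were called in limma (4 lower at an unadjusted p under 0.05) and 5 had GS arrays wholly below GB (5.11% of all genes). By means 10 were lower in GS, where 43% of all genes had the higher mean. The median was -0.19, against -0.2 over the tested olfactory and vomeronasal receptor genes. Without the 2 arrays Wif1 was called (0.0775% of all genes were called lower) and the median was -0.17. Sostdc1, which inhibits both WNT and BMP, read 6.59, 6.75 and 6.53 in GS and 7.45, 7.05 and 7.51 in GB (-0.72, adjusted p = 0.486; without the 2 arrays -0.81). Among 28 WNT ligands, receptors and R-spondins 0 were called in limma (2 higher and 2 lower unadjusted). Of these, 4 had GS arrays wholly below (5.11% of all genes) and 1 wholly above (4.45%). Their median was -0.14 (-0.07 without the 2 arrays), with the tested olfactory and vomeronasal receptor genes at -0.2 on all arrays. The 18 members of the beta-catenin complex gave 0 calls in limma (1 higher unadjusted) and a median of 0.12 (0.09 without the 2 arrays).

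**Figure D2:**
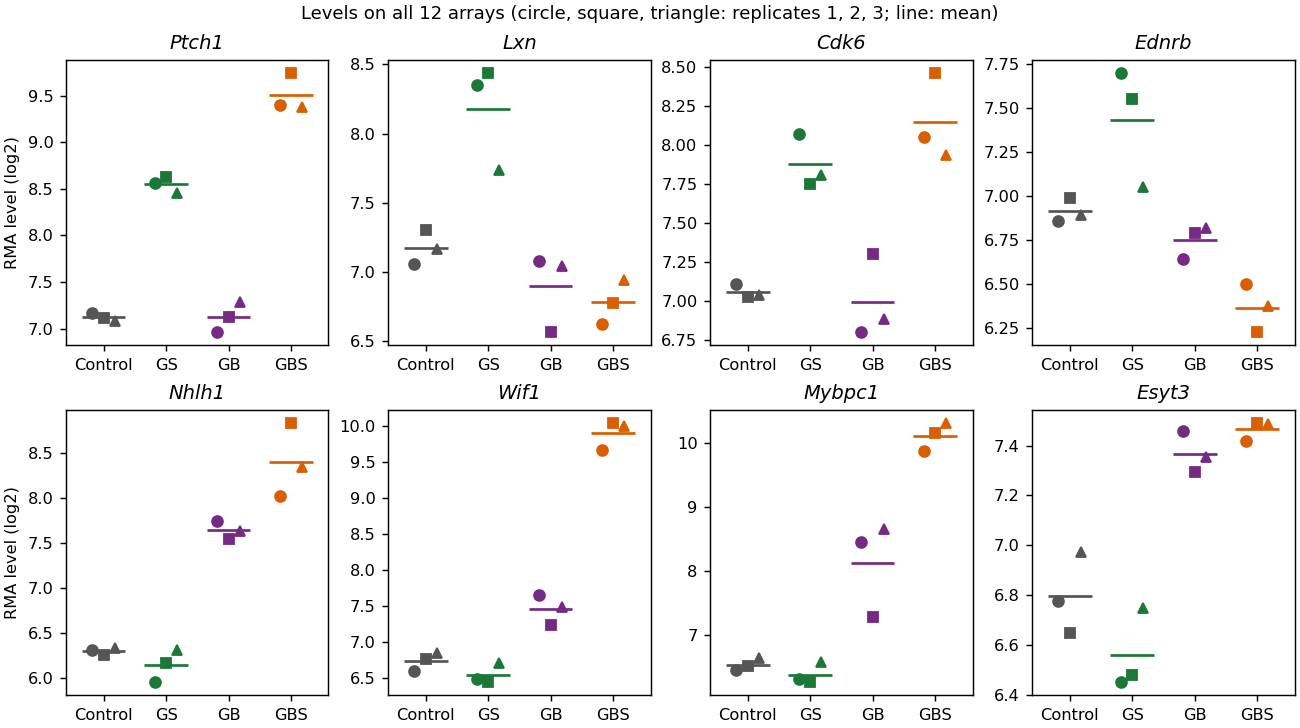
The vertical axes give log2 RMA levels in Control, GS, GB and GBS, with 1 symbol per array and a line at each group mean, and each panel has its own scale. In the upper row the GS arrays lie above the GB arrays (Ptch1, Lxn, Cdk6, Ednrb), and in the lower row the GB arrays lie above the GS arrays (Nhlh1, Wif1, Mybpc1, Esyt3). For Mybpc1, GB replicate 2 lies below the other GB arrays.

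Several genes with low p outside the pathway lists were higher in GB. Mybpc1, a myosin-binding protein known from slow muscle, read 6.30, 6.26 and 6.57 in GS and 8.45, 7.28 and 8.66 in GB. GB replicate 2 lay between the other GB arrays and GS, and the difference was -1.75 ± 0.288 (adjusted p = 0.164). Without the 2 arrays it was -2.27 (adjusted p = 3.74e-05). Adamts19, a secreted metalloprotease, had the same layout: 6.16, 6.08 and 6.50 in GS and 7.82, 6.76 and 7.79 in GB (-1.21, adjusted p = 0.362; without the 2 arrays -1.68, adjusted p = 0.00019). Both were called in all 24 other settings of the smaller fit, as was Lxn, and Ptch1 in 23 (not with the receptor-gene level as a covariate). Those settings all leave out GB replicate 2 and GS replicate 3. Starting from all 12 arrays, Mybpc1 was called in 5 of 28 other settings, Adamts19 in 4 and Lxn in 5. Esyt3, a tether between the endoplasmic reticulum and the plasma membrane, read 6.45, 6.48 and 6.75 in GS and 7.46, 7.29 and 7.35 in GB (-0.81, adjusted p = 0.0708; without the 2 arrays adjusted p = 0.00622).

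Dio2, the enzyme that activates thyroid hormone, read 5.96, 5.95 and 6.25 in GS and 6.63, 6.46 and 6.67 in GB (-0.53, adjusted p = 0.329; without the 2 arrays adjusted p = 0.0124). Egr1, an immediate early factor, read 6.23, 6.36 and 6.42 in GS and 6.67, 6.90 and 6.98 in GB (-0.52, adjusted p = 0.304; without the 2 arrays -0.53). Neither overlapped between groups. Chosen after their values were seen, because they were called in the smaller fit, are Cyp1b1, a cytochrome P450 (-1.37), Myo1e, a class I myosin (-1.29), the peptide receptor gene Grpr (-0.97) and Chd7, a chromatin remodeller (-0.81). On all arrays these 4 differed by -1.05, -0.99, -0.72 and -0.41 and did not pass. For Chd7, GB replicate 2 read 8.596, below the 3 GS arrays at 8.995, 8.995 and 9.002, and the other GB arrays read 9.76 and 9.85.

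On the GS side, Lxn, a carboxypeptidase inhibitor, read 8.35, 8.44 and 7.74 in GS and 7.08, 6.56 and 7.04 in GB. No arrays overlapped, GS replicate 3 was the lowest of its group, and the Control mean was 7.18 (1.28 ± 0.193, adjusted p = 0.0941; without the 2 arrays 1.33, adjusted p = 0.000739). Scrg1, a small secreted protein, read 7.47, 7.26 and 6.38 in GS and 5.74, 5.65 and 5.81 in GB (1.30, adjusted p = 0.304; without the 2 arrays adjusted p = 0.00541). Pantr1, a long noncoding RNA, read 8.78, 8.30 and 8.51 in GS and 7.40, 6.73 and 7.43 in GB (1.34, adjusted p = 0.171), and it was not called without the 2 arrays either (1.12, adjusted p = 0.0689). Here GB lay below the Control mean of 7.88 on every array.

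Cdk6, the kinase partner of D-type cyclins, read 8.07, 7.75 and 7.81 in GS and 6.80, 7.30 and 6.88 in GB (0.88, adjusted p = 0.271; without the 2 arrays 1.07, adjusted p = 0.0267). Peg10, an imprinted gene derived from a retrotransposon, read 8.18, 8.26 and 7.82 in GS and 7.24, 7.16 and 7.59 in GB (0.76, adjusted p = 0.329; without the 2 arrays adjusted p = 0.0484). Ndrg2, known from astrocytes and radial glia, read 8.89, 8.95 and 8.58 in GS and 8.20, 7.98 and 8.36 in GB (0.63, adjusted p = 0.329; without the 2 arrays adjusted p = 0.0351). All 3 genes had GS arrays wholly above GB. Syne2, which links the nucleus to the cytoskeleton, read 8.50, 8.24 and 8.76 in GS and 7.76, 7.62 and 7.79 in GB (0.78, adjusted p = 0.365), and it did not pass in the smaller fit (0.59).

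Genes of dividing cells split. Of 26 tested, 0 were called in either limma fit (7 higher on all arrays at an unadjusted p under 0.05), 9 had GS arrays wholly above GB (4.45% of all genes) and 2 wholly below (5.11%), with a median of 0.11 (0.13 without the 2 arrays). Kif11, the spindle motor, read 7.69, 7.14 and 7.78 in GS and 6.597, 6.189 and 6.528 in GB (1.10, adjusted p = 0.365). Top2a, which untangles replicated DNA, read 8.59, 8.16 and 8.71 in GS and 7.63, 6.59 and 7.56 in GB (1.22, adjusted p = 0.449). Mki67, the marker of cycling cells, read 8.34, 7.86 and 8.66 in GS and 7.54, 7.11 and 7.53 in GB (0.89, adjusted p = 0.486). These genes were lowest in GB replicate 2, and without the 2 arrays the differences were 0.85, 0.78 and 0.57. Ccna2, the S-phase cyclin, differed by 0.79 and by 0.61 in the smaller fit, while Mcm7, of the replicative helicase, had GS arrays wholly below GB (-0.26 in both fits). Pcna, the polymerase clamp, moved between the fits: 9.69, 9.54 and 9.58 in GS and 9.38, 7.41 and 9.33 in GB gave 0.90, against 0.26 without the 2 arrays.

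Radial glia and progenitor genes gave 5 of 16 with GS arrays wholly above GB (4.45% of all genes) and 0 wholly below. The median was 0.12 (0.17 without the 2 arrays), with 6 higher at an unadjusted p under 0.05. The list split by means, with 10 genes higher and 6 lower in GS, where 43% of all genes had the higher mean. The members named next are all from the higher side. Ednrb, the endothelin receptor of glial precursors, read 7.70, 7.55 and 7.05 in GS and 6.64, 6.79 and 6.81 in GB (0.68, adjusted p = 0.372). It was the one called in the smaller fit (0.90, adjusted p = 0.0091), where 0.127% of all genes were called higher. Sox2, the stem cell factor, read 7.87, 7.76 and 7.53 in GS and 7.19, 6.88 and 7.36 in GB (0.58, adjusted p = 0.435; without the 2 arrays 0.54). Slc1a3, the glutamate transporter of radial glia, read 8.62, 8.70 and 8.36 in GS and 7.81, 7.63 and 8.27 in GB (0.66, adjusted p = 0.486; without the 2 arrays 0.62). Fabp7, their lipid-binding protein, read 11.1, 10.9 and 10.4 in GS and 9.98, 8.72 and 10.4 in GB (1.15, adjusted p = 0.486; without the 2 arrays 0.86). Ptprz1, a receptor phosphatase chosen after its values were seen, had the largest difference of the list (1.74, adjusted p = 0.486), but GB replicate 2 read 6.90 beside 8.88 and 9.01, and without the 2 arrays it was 1.28 (adjusted p = 0.353).

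Markers of postmitotic neurons were higher on average in GS for 17 of 18 genes, with a median of 0.51. Over all genes, 43% had the higher mean in GS (49.9% without the 2 arrays, 52.4% with the filter at the 60th percentile). On all arrays 0 were called in limma (4 higher at an unadjusted p under 0.05), and 3 had GS arrays wholly above GB (4.45% of all genes). The median was 0.35 without the 2 arrays and ran from 0.14 to 0.91 over the other settings, so it moved with the arrays and the model used. Tubb3, the neuronal tubulin, read 10.2, 9.93 and 9.36 in GS and 9.53, 7.84 and 9.36 in GB (0.91, adjusted p = 0.486; without the 2 arrays 0.61), and Elavl4, a neuronal RNA-binding protein, read 8.13, 8.11 and 7.27 in GS and 7.48, 6.04 and 7.41 in GB (0.86; without the 2 arrays 0.67). In both genes GB replicate 2 and GS replicate 3 were the lowest arrays of their groups. Nefm, a neurofilament subunit, read 8.16, 7.92 and 7.09 in GS and 6.82, 6.13 and 6.90 in GB. It was called in the smaller fit (1.18, adjusted p = 0.0124; on all arrays 1.11, adjusted p = 0.486), where 0.127% of all genes were called higher. The array medians of this list were 8.37 to 8.87 in GS and 7.73 to 8.47 in GB. Their part in the other results was not tested.

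Regional genes did not part as a group. Of 17 dorsal forebrain genes 1 had GS arrays wholly above GB (4.45% of all genes) and 2 wholly below (5.11%), and of 19 ventral genes 3 and 1. The medians were -0.12 and -0.01 (-0.13 and -0.04 without the 2 arrays), with 0 called by limma in either list (1 higher and 2 lower dorsal genes and 2 higher ventral genes at an unadjusted p under 0.05). Emx2, a factor of the dorsal and medial cortex, read 6.30, 6.27 and 6.19 in GS and 7.02, 6.84 and 7.08 in GB (-0.73, adjusted p = 0.294; without the 2 arrays adjusted p = 0.0933). Dmrt3, another dorsal factor, differed by -0.31 (without the 2 arrays -0.38). Neurod6, of pyramidal neurons, read 8.64, 8.07 and 8.24 in GS and 7.69, 5.90 and 7.46 in GB (1.30, without the 2 arrays 0.78). Dlx6, of the interneuron lineage, read 8.82, 9.15 and 8.87 in GS and 8.03, 7.59 and 8.24 in GB (0.99, adjusted p = 0.365; without the 2 arrays 0.84). Dlx1 (0.43) and Dlx5 (0.32) had the same layout, and Lhx6 the opposite (-0.24), with 0.28, 0.21 and -0.12 without the 2 arrays. In the cortical hem list, the dorsal WNT and BMP source, all 11 tested genes had the lower mean in GS. Over all genes, 43% had the higher mean in GS (49.9% without the 2 arrays). In 2 of the 11 the GS arrays lay wholly below GB (5.11% of all genes), and the median was -0.15 in both fits. The tested olfactory and vomeronasal receptor genes had a median of -0.2 on all arrays.

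**Figure D3:**
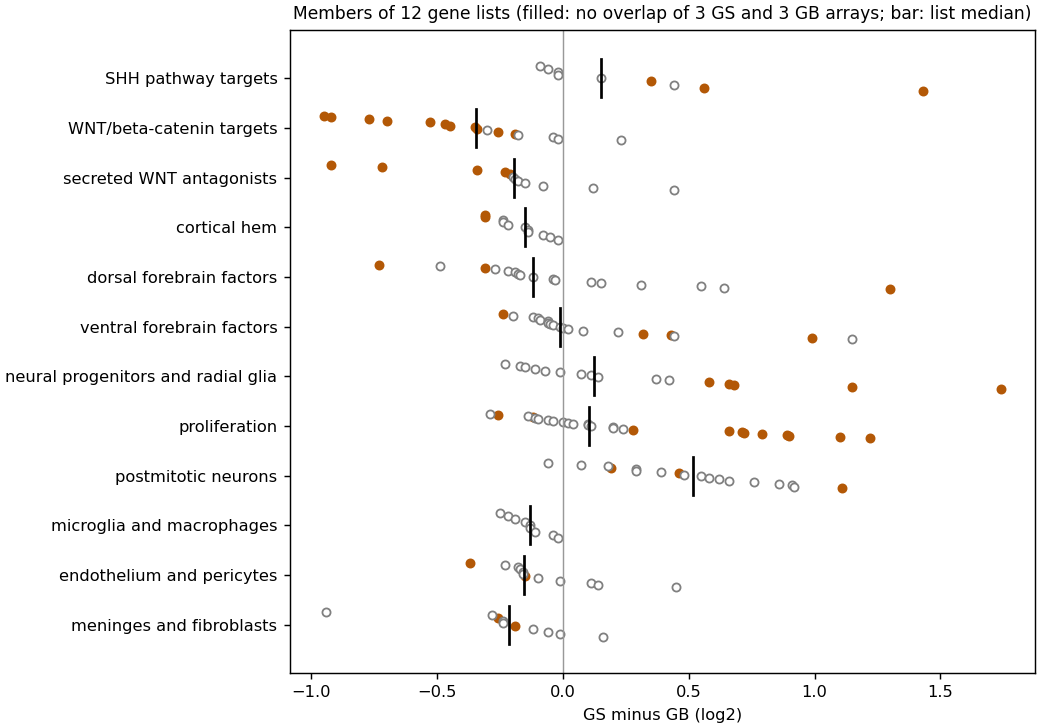
Each point is a tested member of 1 of 12 gene lists, placed by its GS minus GB difference in log2 units. Filled points have no overlap of the 3 GS and 3 GB arrays, and black bars mark list medians. WNT/beta-catenin targets lie mostly below 0 (median -0.35) and postmitotic neuron markers mostly above (median 0.51), while Ptch1 stands alone at 1.43 among SHH targets.

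The BMP, FGF and axon guidance lists (18, 17 and 28 genes tested) gave 0 calls in limma on all arrays. At an unadjusted p under 0.05, 1 BMP gene was higher and 2 lower, 2 FGF genes were lower and 5 axon guidance genes higher. Bmp2, a secreted BMP, read 5.51, 5.85 and 5.55 in GS and 7.20, 5.95 and 6.70 in GB (-0.98, adjusted p = 0.486; without the 2 arrays -1.26, adjusted p = 0.0783). Of 17 FGF pathway genes 4 had GS arrays wholly below GB (5.11% of all genes), and 2 with quantile normalization or with median-centred arrays. The FGF list median was -0.07 (-0.02 without the 2 arrays), against -0.041 over all genes (-0.001). Among the 4 were the feedback phosphatase gene Dusp6 (-0.25) and the ligand gene Fgf18 (-0.27), which differed by -0.26 and -0.18 without the 2 arrays. Of 28 axon guidance genes 5 had GS arrays wholly above GB (4.45% of all genes), with a list median of 0.05 (0.02 without the 2 arrays). The semaphorin receptor gene Nrp1 differed by 0.97 and the ephrin gene Efnb2 by 0.57 (0.95 and 0.44 without the 2 arrays). Lin28a, the embryonic RNA-binding protein known from multilayered rosette tumors, read 6.69, 6.84 and 6.74 in GS and 6.86, 7.29 and 6.96 in GB (-0.28, adjusted p = 0.486; without the 2 arrays -0.15).

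Among the listed markers of microglia, blood vessels and meninges 0 were called in limma (0, 1 and 2 lower at an unadjusted p under 0.05). All 9 microglial genes had the lower mean in GS (median -0.13, 0 without overlap), as had 9 of 12 endothelial genes (median -0.15), where 43% of all genes had the higher mean. Without the 2 arrays these medians were -0.07 and -0.06, and 49.9% of all genes had the higher mean in GS. On all arrays the tested olfactory and vomeronasal receptor genes had a median of -0.2. Of 10 meningeal genes 2 had GS arrays wholly below GB (5.11% of all genes), and the median was -0.21 (-0.10 without the 2 arrays). Dcn, a collagen-binding proteoglycan of that list, read 7.68, 7.62 and 6.43 in GS and 8.35, 7.35 and 8.85 in GB (-0.94, adjusted p = 0.486; without the 2 arrays -0.95), and its arrays overlapped. The array medians of the meningeal list were 7.19 to 7.58 in GS and 7.44 to 7.72 in GB, and their part in the results was not tested.

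Against the other genotypes, the 29 genes of the smaller fit are placed on all 12 arrays as a description, because both differences share the Control arrays. These genes were also picked for a GS minus GB difference on arrays used again here, which favours the layout below. The same shares over all genes were not computed, and Control and GBS differ from GS and GB in sex. All 18 genes called higher in GS lay farther from Control in GS than in GB, with GS above Control, and 17 had GB below Control. All 11 called lower in GS lay farther from Control in GB, with GB above Control. In the GBS tumors, 10 of these 11 had a mean above GB, as in Wif1 with 9.91 and Mybpc1 with 10.1. Of the 18 higher in GS, 14 had a GBS mean below GS, as in Lxn (6.78) and Scrg1 (5.29). Ptch1 (9.51) and Cdk6 (8.15) were among the 4 with GBS above GS.

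**Figure D4:**
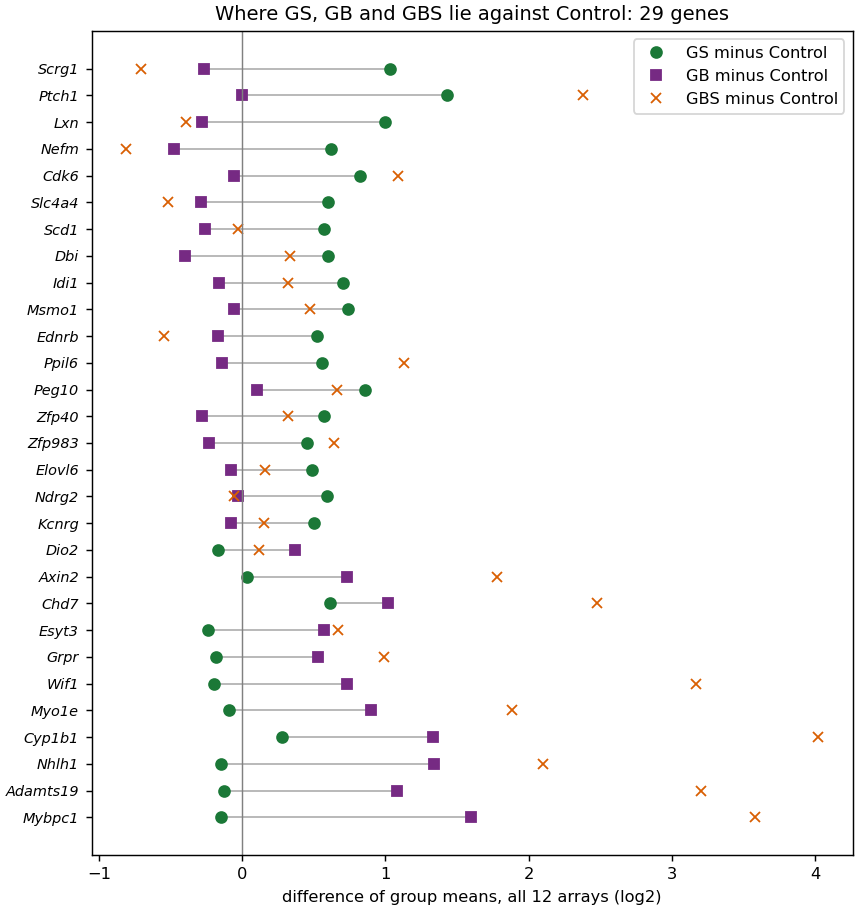
Each row is 1 of the 29 genes called without GB replicate 2 and GS replicate 3, and the horizontal axis is the difference of group means from Control on all 12 arrays in log2 units. Circles are GS, squares GB and crosses GBS. For the 18 upper genes GS lies right of GB, and for the 11 lower genes GB lies right of GS, with the GBS cross beyond GB in 10.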

How the data were processed

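Total RNA of newborn forebrain was isolated with Trizol, and 6 µg went into biotin labelling for Affymetrix Mouse Gene arrays, 1 array per replicate. The authors deposited log2 values, and the submitters' processing notes name RMA and the software Affymetrix Expression Console. No source used here gives the software version, probe set library or build, and the log2 scale was taken from the values (2.82 to 13.83). No depth exists for arrays, and their number limits the precision.

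Of 35556 probe sets, 21789 had 1 gene symbol, and the one with the highest mean was kept for each of 19938 genes. Genes above the 40th percentile of their array in at least 3 of 12 arrays were tested (14195). limma 3.58.1 (lmFit, eBayes; R 4.3.3) fitted 1 mean per genotype, with 8 residual degrees of freedom. The script was tested on simulated data. Nothing says that mice came from separate litters, so p-values rest on the spread between these samples only. That spread is pooled within all 4 genotypes and is not that of GS and GB alone. Probe sets without a single gene name (7691 tested) gave 0 calls in limma, with 515 at an unadjusted p under 0.05.

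Members, gene lists and the 2 arrays left out were chosen with earlier results of these data known. Named whatever their values were Smo, Ctnnb1, Ptch1, Gli1, Hhip, Axin2, Lef1, Wif1, Lin28a and Mki67. Others are the 10 genes of lowest p in each direction whose arrays do not overlap, without predicted, clone and sex genes, and up to 4 members of each list. Genes outside the rule, those called only in the smaller fit included, were chosen after their values were seen. Other filters, normalizations, covariates, variance models, a replicate block, thresholds and left-out arrays were tried.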

Additional observations from a re-analysis of the deposited data

How the results depend on the processing

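On all arrays 1 gene was called higher and 1 lower in GS. Higher and lower counts were 2 and 4 with quantile normalization, 5 and 10 with the receptor-gene level as a covariate, 1339 and 753 with array weights (whose estimate stopped before it converged), 0 and 0 with GS and GB arrays alone, 18 and 11 without GB 2 and GS 3, and 76 and 14 without Control 3 as well. The lower count was 0 with median-centred arrays, with Xist as a covariate and at an adjusted p under 0.01, and 2 with limma's trend and robust settings. Leaving out each array gave 1 to 4 higher and 0 to 8 lower.

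The deviations of same-numbered GS and GB arrays correlated between -0.82 and 0.72. GB replicate 2 and GS replicate 3, whose deviations correlated at 0.83, weigh on these values. They therefore cannot tell whether replicate numbers pair the samples. With the replicate number as a block, 1 gene was called higher and 0 lower, and 4 and 4 in the smaller fit.

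Settings for the smaller fit (18 and 11) were chosen after seeing the data. With the receptor-gene covariate 1 gene was called higher (Lxn, while Ptch1 was not called) and 4 lower. Counts were 1276 and 406 with array weights, 1838 and 445 with GS and GB arrays alone, and 6 and 7 with Xist. They were 4 and 5 at an adjusted limma p under 0.01, and 7 and 6 with at least a 2-fold change. Trend and robust settings gave 30 higher, quantile normalization 17 lower and median centring 7 lower. Leaving out each further array gave 2 to 79 higher and 2 to 24 lower.

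Genes with GS arrays wholly above GB numbered 632, and 4759 without GB 2 and GS 3 (711 to 4091 without single arrays). Those wholly below numbered 725, 434 with the filter at the 60th percentile and 4108 without both arrays (890 to 3878 without single arrays). With fewer arrays, separation is easier by construction. The share of genes with a higher mean in GS was 43%, and 50.9% with median-centred arrays. It was 35.4% with no filter on dim genes and 52.4% with the filter at the 60th percentile. Without GB replicate 2 it was 52.4%, and without GB 2 and GS 3 it was 49.9%.

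Signs turned for 3 uncalled genes near 0, which without single arrays ranged from -0.12 to 0.05 (Smo), -0.17 to 0.04 (Gli1) and -0.07 to 0.05 (Ccnd1). Smo was 0.02 with centred arrays, 0.04 with the receptor covariate, 0.02 without GB 2 and GS 3, 0.02 without Control 3 as well, and 0.05 without GB replicate 2. Gli1 was 0.03 and 0.04 with the receptor covariate and without GB replicate 2. Ccnd1 was 0 with quantile normalization, 0.02 with centring, 0.02 with the receptor covariate, 0.01 with array weights, 0.04 in both fits without GB 2 and GS 3, and 0.05 without GB replicate 2. The cause of these differences was not tested.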

Other observations

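Genes of sterol and fatty acid synthesis had higher means in GS for 20 of 25 tested (43% of all genes). The list was drawn up after values were seen, so its counts support nothing. On all arrays, 0 were called in limma (12 higher at an unadjusted p under 0.05), 8 had GS arrays wholly above GB (4.45% of all genes) and the median was 0.46 (0.43 without GB replicate 2 and GS replicate 3). Without GB replicate 2 and GS replicate 3, Scd1, Msmo1, Idi1 and Elovl6 were called, where 0.127% of all genes were called higher. Scd1, which desaturates fatty acids, read 6.96, 7.14 and 6.34 in GS and 6.07, 5.87 and 6.00 in GB (0.83, adjusted p = 0.435 in limma; without the 2 arrays 1.02, adjusted p = 0.0314). Msmo1 and Idi1, of sterol synthesis, differed by 0.99 each in the smaller fit, and Elovl6, which lengthens fatty acids, by 0.65. GS replicate 3 was the lowest GS array for all 4 genes.

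Dbi, which binds acyl-CoA, read 9.33, 9.13 and 8.62 in GS and 8.22, 7.61 and 8.25 in GB (limma adjusted p = 0.372; without the 2 arrays adjusted p = 0.0314). Slc4a4, a bicarbonate transporter of glia, read 8.15, 8.07 and 7.26 in GS and 6.95, 6.69 and 7.18 in GB, and differed by 1.04 in the smaller fit. The remaining genes called there were Ppil6 (0.84), Zfp40 (0.74), Zfp983 (0.67) and Kcnrg (0.52). Gm10561, a predicted gene chosen after its values were seen, read 6.61, 6.30 and 6.62 in GS and 5.04, 5.13 and 5.23 in GB (1.38, limma adjusted p = 0.0801; without the 2 arrays 1.32).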
